A study of Rattus norvegicus with 65 samples.

Results

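The genes that build cholesterol and fatty acids, with those that control and move cholesterol, were followed by RNA sequencing in primary rat neonatal cardiomyocytes exposed to 3 drugs. The 36 genes were taken by symbol and all 36 were found among the 14554 genes of the count table: 18 enzymes of cholesterol synthesis, 5 genes that control the sterol regulatory element-binding proteins (SREBPs), 4 genes of cholesterol transport and export, and 9 enzymes of fatty acid synthesis and desaturation. The heart cells of mixed litters were pooled, plated, starved of serum overnight and treated for 6 or 24 h with 10 mM 5-fluorouracil (5FU), 2.5 mM acetaminophen (Ace) or 1.25 uM doxorubicin (Dox). Control wells held DMSO, at 1% for the 5FU condition (DMSO1) and at 0.25% for the Ace and Dox conditions (DMSO2). The 65 libraries form 10 groups of 6 or 7, and since the wells of a group were plated from 1 pool of cells, the p-values measure the spread between wells. Ace and Dox were read against the same DMSO2 libraries.

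Cholesterol is made from acetyl-CoA in a long chain of steps that passes through mevalonate, isoprenoid pyrophosphates, squalene and lanosterol. The enzymes of the chain are regulated together: when sterols in the endoplasmic reticulum run low, SCAP escorts the SREBPs to the Golgi, where they are cut and released to switch on sterol and fatty acid genes, and when sterols are ample the INSIG proteins hold SCAP back. Surplus cholesterol is exported by ABCA1 and ABCG1, whose genes answer to the oxysterol receptors LXR. The adult heart burns fatty acids as its main fuel, while these synthetic pathways supply membranes and signalling lipids.

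Library totals ran from 14332827 to 25738297 estimated counts, and 35 of the 36 genes had at least 10 counts in every library. The exception was Elovl6, listed at 0 in some libraries. Levels are given as CPM, the counts of a gene relative to the total of its library after scaling by the TMM method, for the lowest, median and highest library of a group. They compare libraries and not genes, because transcript lengths were not used. A gene was called higher or lower at a false discovery rate (FDR, Benjamini-Hochberg over all genes) below 0.01 in edgeR's quasi-likelihood test, and log2 fold changes (log2FC) come from the same fit. The marker genes of cardiomyocytes were abundant in the controls, with 9 markers summing to between 31327 and 48141 CPM, and 10 fibroblast markers summed to between 6546 and 19963 CPM there. In bulk RNA, fewer cells of a type and less RNA per cell cannot be told apart. A few libraries stood apart in the synthesis genes. In the DMSO1 group at 6 h the 18 cholesterol synthesis genes summed to 2616 and 2818 CPM in a pair of libraries and to between 3535 and 3776 CPM in the others. With 5FU at 6 h they summed to between 2358 and 2442 CPM in 3 libraries and to between 2958 and 3081 CPM in the other 3, and smooth muscle and pericyte markers split the same libraries into 1690 to 1824 CPM and 2790 to 2943 CPM. The library numbered 7 was the lowest of its group in both Dox groups, at 1517 and 744 CPM, with smooth muscle and pericyte markers at 1275 and 446 CPM against at least 2576 and 1422 CPM in the other libraries.

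Stretches of the promoters of 7 of these genes are shown for letters tied to sterol control. These letters are the core of a sterol regulatory element (TCACNCC) and the CCAAT box that commonly stands beside it. All 5 genes with the core are shown. Hmgcs1 and Insig1 were picked by name from the genes that hold CCAAT without the core. Windows from 250 bases before to 50 bases after the gene start were taken from RefSeq on the rat assembly GRCr8, which listed 28 of the 36 genes. Both strands were searched, capitals mark TCACNCC or CCAAT in either direction, and each stretch runs 20 bases past the outermost match.
Mvd (chr19:67414952-67415165, minus strand): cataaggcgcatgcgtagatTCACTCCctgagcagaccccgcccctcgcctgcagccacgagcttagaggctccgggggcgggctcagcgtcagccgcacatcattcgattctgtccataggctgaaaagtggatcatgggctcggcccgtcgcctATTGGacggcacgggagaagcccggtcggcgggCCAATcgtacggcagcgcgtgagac
Msmo1 (chr16:29746903-29747069, plus strand): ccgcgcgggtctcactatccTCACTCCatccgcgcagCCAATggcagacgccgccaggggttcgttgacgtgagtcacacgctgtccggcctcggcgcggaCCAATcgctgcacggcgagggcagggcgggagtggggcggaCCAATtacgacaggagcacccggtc
Hmgcs1 (chr2:53382096-53382195, plus strand): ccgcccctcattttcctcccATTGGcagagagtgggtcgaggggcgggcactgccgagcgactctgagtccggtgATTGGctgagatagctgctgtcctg
Srebf2 (chr7:115543131-115543202, plus strand): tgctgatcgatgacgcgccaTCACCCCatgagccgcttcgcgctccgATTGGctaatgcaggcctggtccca
Insig1 (chr4:8057938-8057982, minus strand): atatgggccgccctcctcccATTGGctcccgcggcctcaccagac
Cyp51 (chr4:30991528-30991574, plus strand): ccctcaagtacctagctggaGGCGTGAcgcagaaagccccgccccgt
Acat2 (chr1:50100720-50100766, plus strand): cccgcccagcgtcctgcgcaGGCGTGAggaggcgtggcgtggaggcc
The core was found in 5 of the 28 genes (Acat2, Cyp51, Msmo1, Mvd and Srebf2), beside 14.6% of the 33469 RefSeq rat promoter windows. CCAAT was found in 20 of the 28, among them 12 of the 15 cholesterol synthesis genes with a window, beside 37.5% of all windows. The longer form TCACNCCAC, which contains the core, was in none of the 28 genes and in 1.12% of all windows. The E-box CACGTG, the other motif that SREBPs can bind, was in 5 of the 28 genes (Abca1, Elovl5, Insig1, Sc5d and Scap) and in 6.42% of all windows. A match shows only that the letters are present.

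The largest median change of the set came between the times of the controls, without a drug. Time in culture and time in DMSO ran together there and cannot be told apart. Between 6 and 24 h in the controls, 29 of the 36 genes fell and 5 rose, where 31.9% of all genes were called lower and 32.7% higher, and the median log2FC was -1.06 over the 36 genes against 0.012 over all genes. Of the 18 cholesterol synthesis genes 17 fell, with a median log2FC of -1.50. The 6 h and 24 h control libraries did not overlap in 27 of the 36 genes, against 21.6% of all genes.

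**Figure D1:**
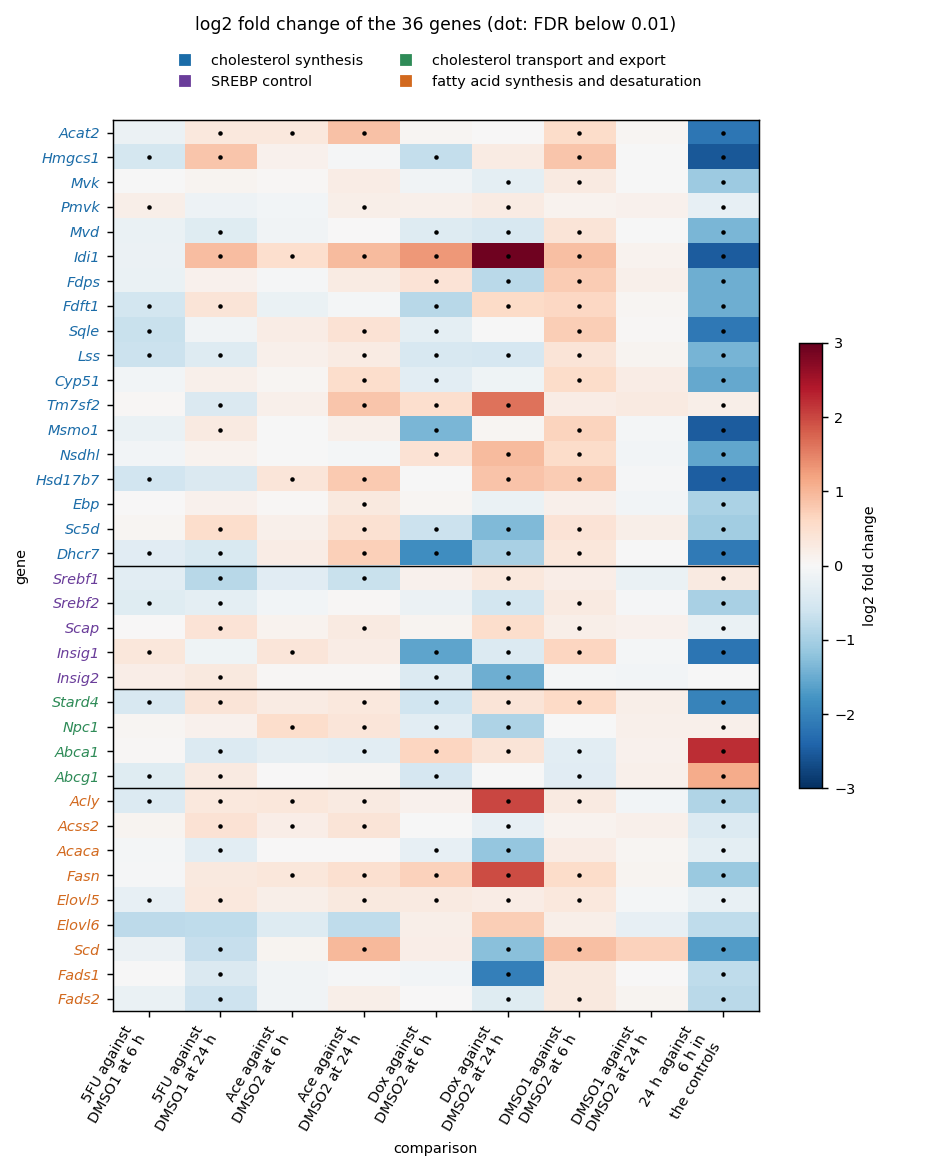
Heat map of the log2 fold change (colour, from -3 to 3) of the 36 genes (rows, grouped by role) in 9 comparisons (columns), with a dot where the FDR was below 0.01. The column on the right, 24 h against 6 h in the controls, is blue in nearly all cholesterol synthesis genes, the comparison of DMSO1 with DMSO2 holds dots at 6 h and none at 24 h, and the Dox column at 24 h holds the deepest red (Idi1) among the drugs.

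Hmgcs1, which makes HMG-CoA at the entry to the mevalonate pathway, stood at 547, 790.3 and 881 CPM in the DMSO1 libraries at 6 h and at 81.5, 94.7 and 106 CPM at 24 h. In DMSO2 it stood at 381, 409 and 450.1 CPM and then at 84.1, 97.2 and 100.3 CPM. All 24 h libraries thus lay far below all 6 h libraries, with a log2FC of -2.54 (SE 0.078, FDR 1.89e-37) over both controls. The falls were of like size in Idi1, the isomerase of the isoprenoid pyrophosphates (log2FC -2.50, SE 0.11, FDR 7.01e-30), and in Msmo1, a methylsterol monooxygenase (log2FC -2.49, SE 0.059, FDR 5.82e-43). Hsd17b7, a sterone reductase, fell by 2.47 on the log2 scale, Acat2, the cytosolic thiolase that makes acetoacetyl-CoA, by 2.16, Sqle, the squalene epoxidase, by 2.13 and Dhcr7, the reductase of the last step, by 2.11. These genes lie at the start, middle and end of the chain. The remaining enzymes fell less. Nsdhl, Cyp51, Fdps, Fdft1, Lss and Mvd had log2FCs between -1.57 and -1.38, Mvk, Sc5d and Ebp between -1.09 and -0.95, and Pmvk, which phosphorylates phosphomevalonate, -0.25 (SE 0.041, FDR 1.65e-07). Tm7sf2, a sterol reductase, was the exception at 0.18 (SE 0.061, FDR 0.00577), a call lost in either control taken alone.

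Among the control genes Insig1, itself a known SREBP target, fell from 182, 186 and 214 CPM at 6 h to 48.1, 53.9 and 58.8 CPM at 24 h in DMSO2 and had a log2FC of -2.18 (SE 0.071, FDR 2.88e-36) over both controls. Its relative Insig2 stayed between 16.6 and 22.2 CPM in the 4 control groups, with a log2FC of -0.018 (SE 0.053, FDR 0.765). Srebf2, the SREBP gene tied most closely to cholesterol synthesis, fell by 0.96 on the log2 scale and Scap by 0.19. Srebf1, whose products favour fatty acid genes, was at 0.26 (SE 0.076, FDR 0.00152), a call that held in DMSO2 and not in DMSO1 taken alone. So the retention gene Insig1 moved with the enzymes and Insig2 did not pass the test.

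The genes of transport moved in opposite directions. Abca1, the cholesterol exporter, rose from 29.6, 35.3 and 44.5 CPM at 6 h to 123, 145 and 166 CPM at 24 h in DMSO2, with no overlap between the times and a log2FC of 2.22 (SE 0.064, FDR 5.16e-39) over both controls. Abcg1, the other exporter, rose as well, at 1.11 (SE 0.054, FDR 3.21e-27). Stard4, which carries cholesterol between membranes and is an SREBP target, fell, at -2.003 on the log2 scale. Npc1, which lets cholesterol out of lysosomes, changed little (log2FC 0.15, SE 0.052, FDR 0.00676), and its call was lost when any of 11 libraries was left out.

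Of the 9 fatty acid genes 8 fell with time and 1, Elovl6, was not called. Scd, which puts the first double bond into saturated fatty acids, fell by 1.67 on the log2 scale. Fasn, the fatty acid synthase, stood at 298, 368 and 426 CPM at 6 h and 165, 202 and 227 CPM at 24 h in DMSO2 (log2FC -1.12, SE 0.072, FDR 1.35e-21 over both controls). Acly, which makes cytosolic acetyl-CoA from citrate, fell by 0.89, and the desaturases Fads2 and Fads1 by 0.82 and 0.76. Acss2, Acaca and Elovl5 fell by 0.42, 0.28 and 0.22, and the last pair of calls was lost in DMSO2 taken alone. The median log2FC of the 9 fatty acid genes was -0.77, against -1.50 for the 18 cholesterol synthesis genes.

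Each control by itself gave similar counts but not the same sizes of change, in a comparison chosen after seeing the data. In DMSO1 alone 29 of the 36 genes fell and 3 rose, beside 27.9% and 25.9% of all genes, and in DMSO2 alone 27 fell and 3 rose, beside 25.5% and 27% of all genes. The median log2FC was -1.19 in DMSO1 and -0.90 in DMSO2. In 11 of the 36 genes the fall was larger in DMSO1 at an FDR below 0.01, beside 3.02% of all genes. Hmgcs1 was among them, with log2FCs of -2.96 in DMSO1 and -2.11 in DMSO2. Abcg1 rose more in DMSO1, beside 0.797% of all genes. Beside these changes, 9 of 10 fibroblast markers and 7 of 9 macrophage markers were higher at 24 h in the controls. Of the 9 cardiomyocyte markers 4 were lower and 1 was higher. The summed fibroblast markers went from 9739 to 14517 CPM at 6 h to 15171 to 18964 CPM at 24 h in DMSO2. In DMSO1 the times overlapped, at 6546 to 10964 CPM and 10018 to 19963 CPM. The part of these markers in the falls was not tested.

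**Figure D2:**
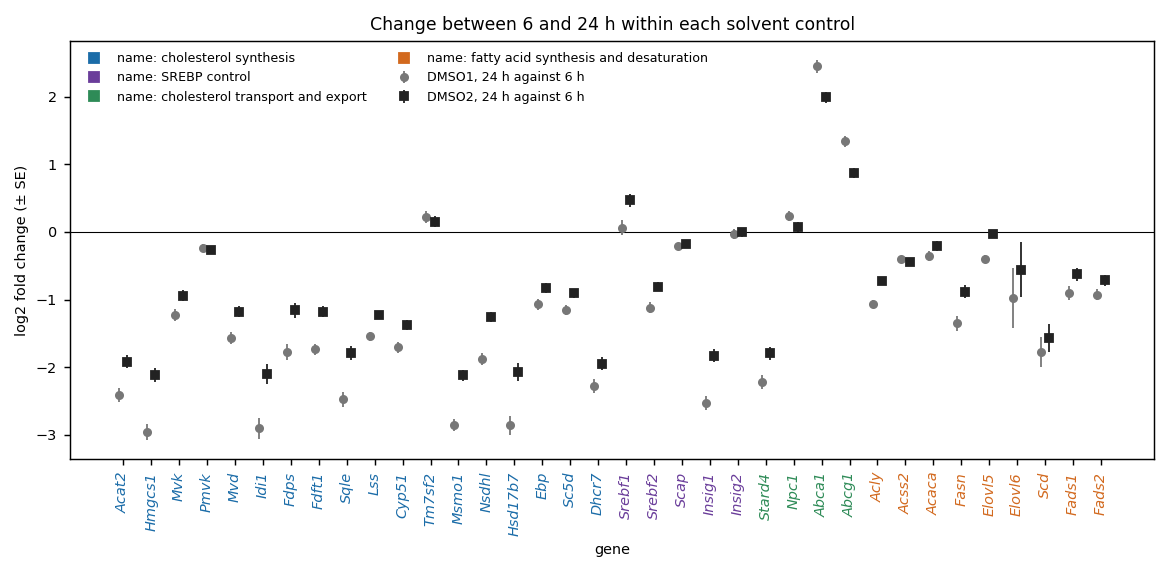
Log2 fold change between 24 and 6 h (vertical axis, with SE bars) of the 36 genes (horizontal axis, names coloured by role) in DMSO1 (circles) and DMSO2 (squares). Nearly all cholesterol synthesis genes lie between -1 and -3 in DMSO1, Abca1 and Abcg1 lie above 0 in both controls, and Insig2 and Tm7sf2 lie near 0.

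The controls differed from each other at 6 h. In DMSO1, with more DMSO, 24 of the 36 genes were higher than in DMSO2 and 2 were lower, where 9.87% of all genes were called higher and 6.6% lower, and 15 of the 18 cholesterol synthesis genes were among those higher. Not normalizing beyond library size left 18 higher and 2 lower, where 723 of all genes were called higher and 1720 lower. That scaling put the median of all genes at -0.075, against 0.0082 with TMM factors. The libraries of the 2 controls did not overlap in 16 of the 36 genes, against 5.07% of all genes. Leaving out any 1 library, the pair of low DMSO1 libraries included, left 21 to 26 genes called. At 24 h no gene of the 36 was called (edgeR and DESeq2 both gave 0), where 0.137% and 0.295% of all genes were called higher and lower. At an unadjusted p below 0.05 in edgeR 8 were higher and 0 lower, and the share of all genes at that threshold was not counted.

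Hmgcs1 was 0.83 (SE 0.10, FDR 8.08e-09) higher on the log2 scale in DMSO1 at 6 h, at 547 to 881 CPM against 381 to 450.1 CPM. At 24 h the same gene gave a log2FC of -0.016 (SE 0.11, FDR 0.97). Idi1 stood at 168, 241 and 268 CPM in DMSO1 and 109, 118 and 132 CPM in DMSO2 at 6 h, again without overlap (log2FC 0.90, SE 0.14, FDR 1.57e-06). The next largest differences in cholesterol synthesis were those of Fdps, the farnesyl pyrophosphate synthase (0.77), Hsd17b7 (0.75), Sqle (0.73), Msmo1 (0.68) and Fdft1, the squalene synthase (0.62). Outside the chain Scd (0.90), Insig1 (0.64), Stard4 (0.59) and Fasn (0.54) were higher too. The 2 genes that were lower were the exporters Abca1 (log2FC -0.32, SE 0.091, FDR 0.00556) and Abcg1 (log2FC -0.33, SE 0.078, FDR 0.000873), which lost their calls when only the compared groups were fitted. These DMSO1 and DMSO2 libraries are also those of the comparison of times.

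A test of the difference between the times, chosen after seeing the data, gave 11 genes in which the DMSO1 excess was larger at 6 than at 24 h and 1, Abcg1, in which it was smaller, beside 3.02% and 0.797% of all genes. The same contrast is the difference between the controls in their change with time. The 11 were Hmgcs1 (difference 0.85, SE 0.15, FDR 8.29e-05), Idi1, Hsd17b7, Msmo1, Insig1, Sqle, Nsdhl, Fdps, Fdft1, Elovl5 and Acly. Of the 26 calls at 6 h, 18 held under all alternatives but the fold minimum. The calls of Abca1, Abcg1, Acly, Dhcr7, Fads2, Mvk, Scap and Srebf2 were lost under at least 1 alternative. At the same time 7 of 10 fibroblast and 7 of 9 endothelial markers were lower in DMSO1 than in DMSO2. Of the 9 cardiomyocyte markers 3 were higher and 0 lower. Smooth muscle and pericyte markers (3 of 8 higher, 3 lower) summed to between 1234 and 4507 CPM in DMSO1 against 1172 to 1535 CPM in DMSO2. Their median sums at 6 h were 2990 CPM in DMSO1, 2307 with 5FU and 3040 with Dox, against 1267 in DMSO2 and 1010 with Ace. The part of these markers in the result was not tested.

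**Figure D3:**
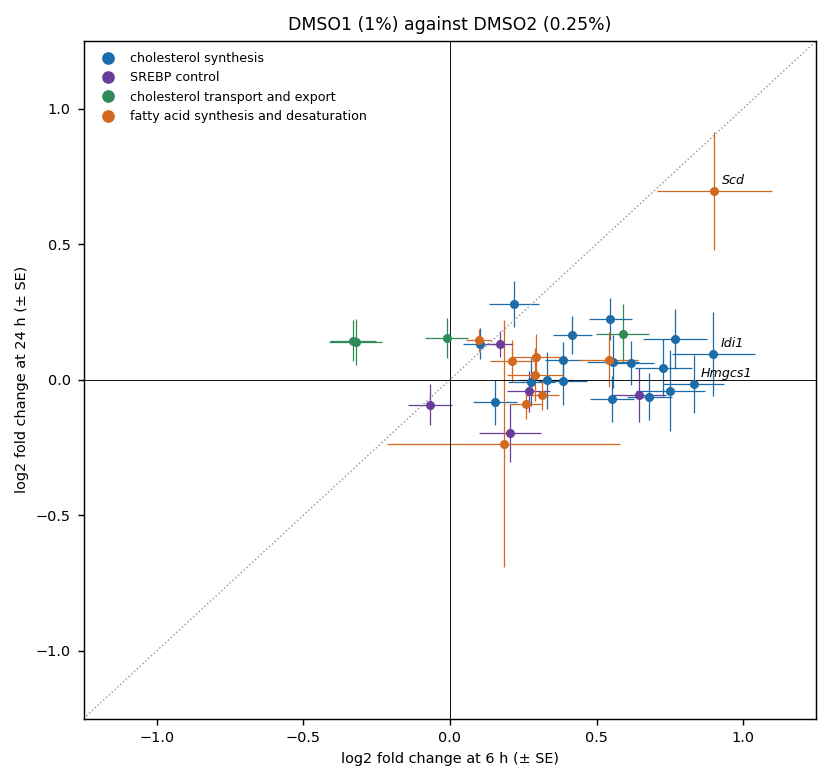
Log2 fold change of DMSO1 (1%) against DMSO2 (0.25%) at 24 h (vertical axis) against that at 6 h (horizontal axis) for the 36 genes, with SE bars on both axes, coloured by role and with the line of equality dotted. The cholesterol genes spread to the right along the 6 h axis and stay near 0 on the 24 h axis, and Abca1 and Abcg1 lie to the left.

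With 5FU at 6 h the share of the set called lower was near that of all genes, and few genes were called higher. Against DMSO1, 11 genes were lower (30.6%) and 2 higher (5.56%), where 24.5% of all genes were called lower and 23.4% higher. The median log2FC was -0.18. The cholesterol synthesis genes, mostly higher in DMSO1 than in DMSO2 at 6 h, summed to a median of 2700 CPM with 5FU. That median was 3552 CPM in DMSO1 and 2068 CPM in DMSO2. On library size alone the split was 15 lower and 0 higher, where 4258 of all genes were called lower and 2478 higher. That scaling put the median of all genes at -0.074, against -0.0016 with TMM factors. The groups did not overlap in 3 genes, against 28.2% of all genes. Between 11 and 15 genes were called when 1 library was left out. Sqle fell from 129, 195 and 222 CPM to 96.9, 116 and 139 CPM (log2FC -0.68, SE 0.10, FDR 5.52e-08), the largest fall among the genes called. Lss, which closes squalene epoxide to lanosterol, fell from 99.6, 114 and 124 CPM to 62.3, 70.4 and 82.1 CPM (log2FC -0.65, SE 0.067, FDR 7.46e-13), with all 5FU libraries below all controls. Hsd17b7 (-0.57), Fdft1 (-0.54), Hmgcs1 (-0.52) and Dhcr7 (-0.33) fell too, as did Stard4 (-0.49), Acly (-0.42), Srebf2 (-0.37), Abcg1 (-0.36) and Elovl5 (-0.25). Only Insig1 (log2FC 0.34, SE 0.10, FDR 0.00243) and Pmvk (log2FC 0.18, SE 0.059, FDR 0.00719) were called higher. Insig1 ranged from 286 to 552 CPM with 5FU and overlapped the DMSO1 range of 239 to 339 CPM, and without 5FU library 1 the log2FC was 0.19 and not called. The calls of Pmvk, Dhcr7 and Abcg1 were also lost under some alternatives. With 5FU at 6 h 3 of 10 fibroblast and 4 of 9 endothelial markers were lower and none higher, with endothelial sums of 148 to 210.4 CPM against 167 to 230.03 CPM in DMSO1. What they contributed was not tested.

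At 24 h the 5FU effect was mixed, with 13 genes higher and 11 lower where 28% and 27.8% of all genes were, a median of 0.11, and 16 genes without overlap against 42.9% of all genes. Idi1 rose from 26.5, 28.7 and 35.6 CPM to 45.8, 53.98 and 74.99 CPM (log2FC 0.93, SE 0.16, FDR 5.98e-07), and Hmgcs1 from 81.5, 94.7 and 106 CPM to 139.9, 149 and 237 CPM (log2FC 0.84, SE 0.11, FDR 1.33e-09). Both groups were apart in these genes. Sc5d, a sterol desaturase (0.52), Acss2, which makes acetyl-CoA from acetate (0.44), Scap (0.40), Stard4 (0.39), Fdft1 (0.38), Elovl5 (0.32), Acly (0.32), Acat2 (0.31), Insig2 (0.29), Abcg1 (0.27) and Msmo1 (0.26) completed the genes that rose. Srebf1 fell from 51.6, 54.1 and 64.9 CPM to 27.4, 32.1 and 37.5 CPM, all libraries apart (log2FC -0.84, SE 0.11, FDR 3.26e-09). With it fell desaturases, namely Scd (-0.68), Fads2 (-0.62) and Fads1 (-0.43), and Acaca, which makes malonyl-CoA (-0.33). Dhcr7, Tm7sf2, Lss and Mvd fell by between 0.36 and 0.45 on the log2 scale, Abca1 by 0.40 and Srebf2 by 0.28. The calls of Acat2, Msmo1 and Scd were lost when single libraries were left out. All 10 fibroblast markers were lower with 5FU at 24 h, summing to between 5200.5 and 5872 CPM against 10018 to 19963 CPM in DMSO1. Of the 9 cardiomyocyte markers 5 were lower and 1 was higher. The part of these markers in the changes was not tested.

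With Ace the genes that changed were nearly all higher. At 6 h 8 of the 36 genes were higher and 0 lower in edgeR, where 16.5% of all genes were higher and 15.2% lower, with a median of 0.072 and 6 genes without overlap against 24.5% of all genes. DESeq2 called 9 higher and 2 lower. In edgeR 3 genes were lower at an unadjusted p below 0.05, a threshold at which all genes were not counted. On library size alone 5 were higher and 1 lower, where 1962 of all genes were called higher and 2452 lower. Npc1 rose from 26.5, 36.9 and 38.4 CPM to 40.8, 50.1 and 55.7 CPM, with no overlap (log2FC 0.53, SE 0.072, FDR 1.51e-08), and Idi1 from 109, 118 and 132 CPM to 149, 174 and 186 CPM, also with no overlap (log2FC 0.50, SE 0.14, FDR 0.00277). Insig1 (0.36), Hsd17b7 (0.36), Fasn (0.34), Acly (0.34), Acat2 (0.31) and Acss2 (0.20) were the rest. The calls of Hsd17b7, Fasn and Acat2 were lost under at least 1 alternative. In the same libraries 7 of 10 fibroblast and 4 of 9 endothelial markers were lower and none higher, with fibroblast sums of 7375 to 11002 CPM against 9739 to 14517 CPM in DMSO2. What they contributed was not tested.

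At 24 h with Ace 19 genes were higher and 2 lower, where 18.2% and 19.1% of all genes were, and the median was 0.25. The groups did not overlap in 15 genes, against 26.9% of all genes. In cholesterol synthesis 11 of 18 were higher and 0 lower, and the remaining 7 had log2FCs between -0.07 (Nsdhl) and 0.24 (Fdps). Idi1 rose from 21.1, 27.9 and 32.7 CPM to 36.01, 57.05 and 73.2 CPM (log2FC 0.94, SE 0.15, FDR 1.88e-07). Acat2 rose from 27.3, 32.4 and 36.1 CPM to 42.6, 61.6 and 70.4 CPM (log2FC 0.88, SE 0.091, FDR 1.34e-12). In both genes the Ace libraries lay above all DMSO2 libraries. Tm7sf2 (0.82), Hsd17b7 (0.79), Dhcr7 (0.71), Cyp51, the lanosterol demethylase (0.54), Sc5d (0.45), Sqle (0.43), Ebp, a sterol isomerase (0.30), Lss (0.25) and Pmvk (0.17) followed. The entry enzyme Hmgcs1 gave -0.045 (SE 0.10, FDR 0.749). Among fatty acid genes Scd (0.96), Fasn (0.48), Acss2 (0.38), Elovl5 (0.30) and Acly (0.26) were higher. Scd ranged from 10.4 to 49.9 CPM with Ace and overlapped the DMSO2 range of 14.2 to 30.3 CPM. Npc1 (0.36), Stard4 (0.31) and Scap (0.27) rose as well. The 2 genes that were lower were Srebf1, at 30.2, 42.6 and 44.4 CPM against 59.8, 62.3 and 77.4 CPM with no overlap (log2FC -0.68, SE 0.10, FDR 1.31e-07), and Abca1 (log2FC -0.31, SE 0.081, FDR 0.00107). The calls of Pmvk, Stard4 and Abca1 were lost under at least 1 alternative. Fibroblast markers were lower here too (9 of 10), summing to between 7307 and 9334 CPM against 15171 to 18964 CPM in DMSO2, and their part was not tested.

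Dox gave the largest changes of the 3 drugs in single genes and no common direction. At 6 h 7 genes were higher and 15 lower, where 31.5% and 32.7% of all genes were, with a median of -0.043, and 16 genes did not overlap, against 42.6% of all genes. On library size alone 5 were higher and 18 lower, where 3064 of all genes were called higher and 5998 lower. That scaling put the median of all genes at -0.15, against 0.0030 with TMM factors. DESeq2 gave 10 higher and 14 lower. Dhcr7 fell from 50.8, 57.96 and 65.9 CPM to 14.2, 15.8 and 18.3 CPM (log2FC -1.86, SE 0.10, FDR 3.63e-26). Insig1 fell from 182, 186 and 214 CPM to 50.2, 66.3 and 69.1 CPM (log2FC -1.59, SE 0.095, FDR 2.93e-23). Msmo1 fell from 111, 126 and 145 CPM to 42.97, 47.2 and 53.8 CPM (log2FC -1.38, SE 0.077, FDR 1.45e-24). In all 3 genes every Dox library lay below every control. Fdft1 (-0.84), Hmgcs1 (-0.72), Sc5d (-0.65), Stard4 (-0.59), Abcg1 (-0.50), Lss (-0.49), Insig2 (-0.40), Mvd, which forms isopentenyl pyrophosphate (-0.38), Cyp51 (-0.31), Npc1 (-0.31), Sqle (-0.28) and Acaca (-0.25) were the other genes that fell. In the same libraries Idi1 rose from 109, 118 and 132 CPM to 212, 301 and 372 CPM (log2FC 1.30, SE 0.14, FDR 9.08e-13). Fasn (0.69), Abca1 (0.64), Tm7sf2 (0.51), Nsdhl, a sterol dehydrogenase (0.43), Fdps (0.42) and Elovl5 (0.26) rose with it. The calls of Sqle, Acaca, Fdps and Elovl5 were lost under at least 1 alternative. In these libraries all 9 endothelial markers were lower, at summed levels of 96.3 to 147 CPM against 265 to 331 CPM in DMSO2, and 6 of 10 fibroblast markers were lower. Of the 9 cardiomyocyte markers 5 were higher and 3 lower. Of the 8 smooth muscle and pericyte markers 4 were higher and 2 lower, summing to between 1275 and 3523 CPM against 1172 to 1535 CPM. What they contributed was not tested.

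After 24 h of Dox 13 genes were higher and 15 lower, where 40.4% and 41% of all genes were, with a median of -0.017 and 22 genes without overlap against 68.2% of all genes. The share of the 36 genes called was thus no larger than that of all genes. Idi1 stood at 93.1, 219 and 284 CPM against 21.1, 27.9 and 32.7 CPM, the largest change of any of the 36 genes in a drug comparison (log2FC 2.91, SE 0.15, FDR 3.22e-27). Its lowest value came from library 7, which still lay above all controls. Tm7sf2 rose from 20.4, 21.8 and 25.8 CPM to 65.6, 68.1 and 83.6 CPM (log2FC 1.62, SE 0.081, FDR 8.66e-28), and Nsdhl (0.94), Hsd17b7 (0.85), Fdft1 (0.57) and Pmvk (0.26) were higher. At the end of the chain Sc5d fell from 47.4, 48.5 and 56.9 CPM to 17.2, 19.6 and 24.6 CPM (log2FC -1.32, SE 0.071, FDR 3.92e-26) and Dhcr7 from 12.3, 15.2 and 16.8 CPM to 5.53, 7.53 and 9.17 CPM (log2FC -0.98, SE 0.11, FDR 1.87e-12), both without overlap. Fdps (-0.82), Lss (-0.50), Mvd (-0.47) and Mvk, the mevalonate kinase (-0.29), fell less. Without library 7 the log2FC of Mvk was -0.16 and no longer called. Enzymes of consecutive steps thus went opposite ways, with Mvd lower, Idi1 higher, Fdps lower and Fdft1 higher.

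Fatty acid genes split as sharply. Acly rose from 124, 136 and 143 CPM to 478, 531 and 645 CPM (log2FC 1.99, SE 0.055, FDR 1.64e-41) and Fasn from 165, 202 and 227 CPM to 665, 801 and 908 CPM (log2FC 1.96, SE 0.10, FDR 2.54e-27), both without overlap. Acaca, whose product joins the steps of these enzymes, fell from 56.7, 66.9 and 72.5 CPM to 27.2, 28.5 and 35.7 CPM (log2FC -1.15, SE 0.076, FDR 8.42e-22). All Dox libraries lay below all controls in it. Fads1 fell from 58.1, 61.6 and 71.7 CPM to 12.6, 15.01 and 18.7 CPM (log2FC -2.05, SE 0.10, FDR 1.39e-27), the largest fall in the set with a drug. Scd fell from 14.2, 17.2 and 30.3 CPM to 2.50, 8.38 and 11.02 CPM (log2FC -1.25, SE 0.24, FDR 2.69e-06), with its lowest value in library 7. Fads2 (-0.36) and Acss2 (-0.25) fell less and Elovl5 (0.22) rose. The desaturases were thus lower while the enzymes that supply acetyl-CoA from citrate and join the chain were higher.

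Among control and transport genes Insig2 fell from 16.6, 18.9 and 21.96 CPM to 4.72, 6.99 and 8.85 CPM at 24 h, without overlap (log2FC -1.45, SE 0.078, FDR 3.07e-26). Insig1, so low at 6 h, was at 34.5, 41.4 and 46.7 CPM against 48.1, 53.9 and 58.8 CPM (log2FC -0.41, SE 0.10, FDR 0.000102). Npc1 fell (log2FC -0.91, SE 0.074, FDR 5.95e-18) and Srebf2 fell (log2FC -0.55, SE 0.073, FDR 3.83e-10). Scap (0.53), Srebf1 (0.31), Stard4 (0.40) and Abca1 (0.39) rose, the call of Stard4 being lost when only the compared groups were fitted. With both Dox libraries numbered 7 left out, a setting chosen after seeing the data, 14 genes were higher and 14 lower at 24 h, and 8 and 13 at 6 h. The share of all genes called in that fit was not counted. At 24 h all 10 fibroblast markers and 8 of 9 cardiomyocyte, endothelial and macrophage markers each were lower with Dox. The cardiomyocyte markers summed to between 12127 and 16408 CPM against 31740 to 40948 CPM in DMSO2. Their part in the changes was not tested.

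**Figure D4:**
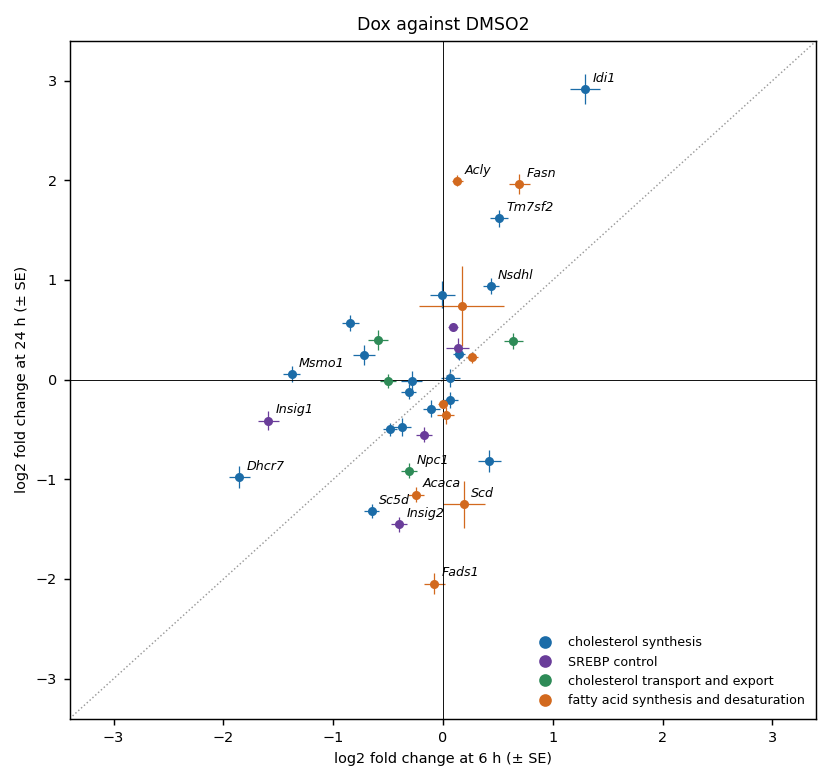
Log2 fold change of Dox against DMSO2 at 24 h (vertical axis) against that at 6 h (horizontal axis) for the 36 genes, with SE bars on both axes, coloured by role and with the line of equality dotted. Idi1, Acly, Fasn and Tm7sf2 lie high above 0 at 24 h, Fads1, Insig2, Sc5d and Scd lie below 0 at 24 h, and Dhcr7, Insig1 and Msmo1 lie furthest to the left.

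The 6 h and 24 h effects of a drug were compared within the same fit. For Dox 14 genes had a larger log2FC at 24 h and 10 a smaller one, where 34% and 30.8% of all genes did. On library size alone the split was 17 and 7, where it was 6234 and 3379 over all genes. That scaling put the median of all genes at 0.27, against 0.065 with TMM factors. The gains were led by Acly (difference 1.86, SE 0.076, FDR 2.40e-31), Idi1 (1.62), Msmo1 (1.43), Fdft1 (1.41) and Fasn (1.27), and the losses by Fads1 (difference -1.97, SE 0.14, FDR 6.23e-20), Scd (-1.44), Fdps (-1.24) and Insig2 (-1.05). Fdft1 and Stard4 were lower at 6 h and higher at 24 h, while Fdps was higher and then lower. For 5FU 13 had a larger log2FC at 24 h and 6 a smaller one, where 20.3% and 19.2% of all genes did. On library size alone the split was 13 and 1, where it was 3440 and 2214 over all genes. Hmgcs1 (difference 1.36, SE 0.15, FDR 6.27e-11) and Idi1 (1.11) led, and Hmgcs1, Fdft1, Stard4, Acly, Elovl5 and Abcg1 went from lower at 6 h to higher at 24 h. For Ace 4 genes (Tm7sf2, Acat2, Cyp51 and Dhcr7) had a larger log2FC at 24 h and 0 a smaller one in edgeR and in DESeq2, where 5.58% and 6.06% of all genes did in edgeR. In edgeR 1 gene was smaller at an unadjusted p below 0.05, a threshold at which all genes were not counted. The Ace count was 8 on library size alone, 7 when only the compared groups were fitted and 7 without DMSO2 library 1 at 24 h. On library size alone 1402 of all genes had a larger Ace log2FC at 24 h and 417 a smaller one. With only the compared groups fitted, 1265 of all genes had a larger one and 1432 a smaller one.

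**Figure D5:**
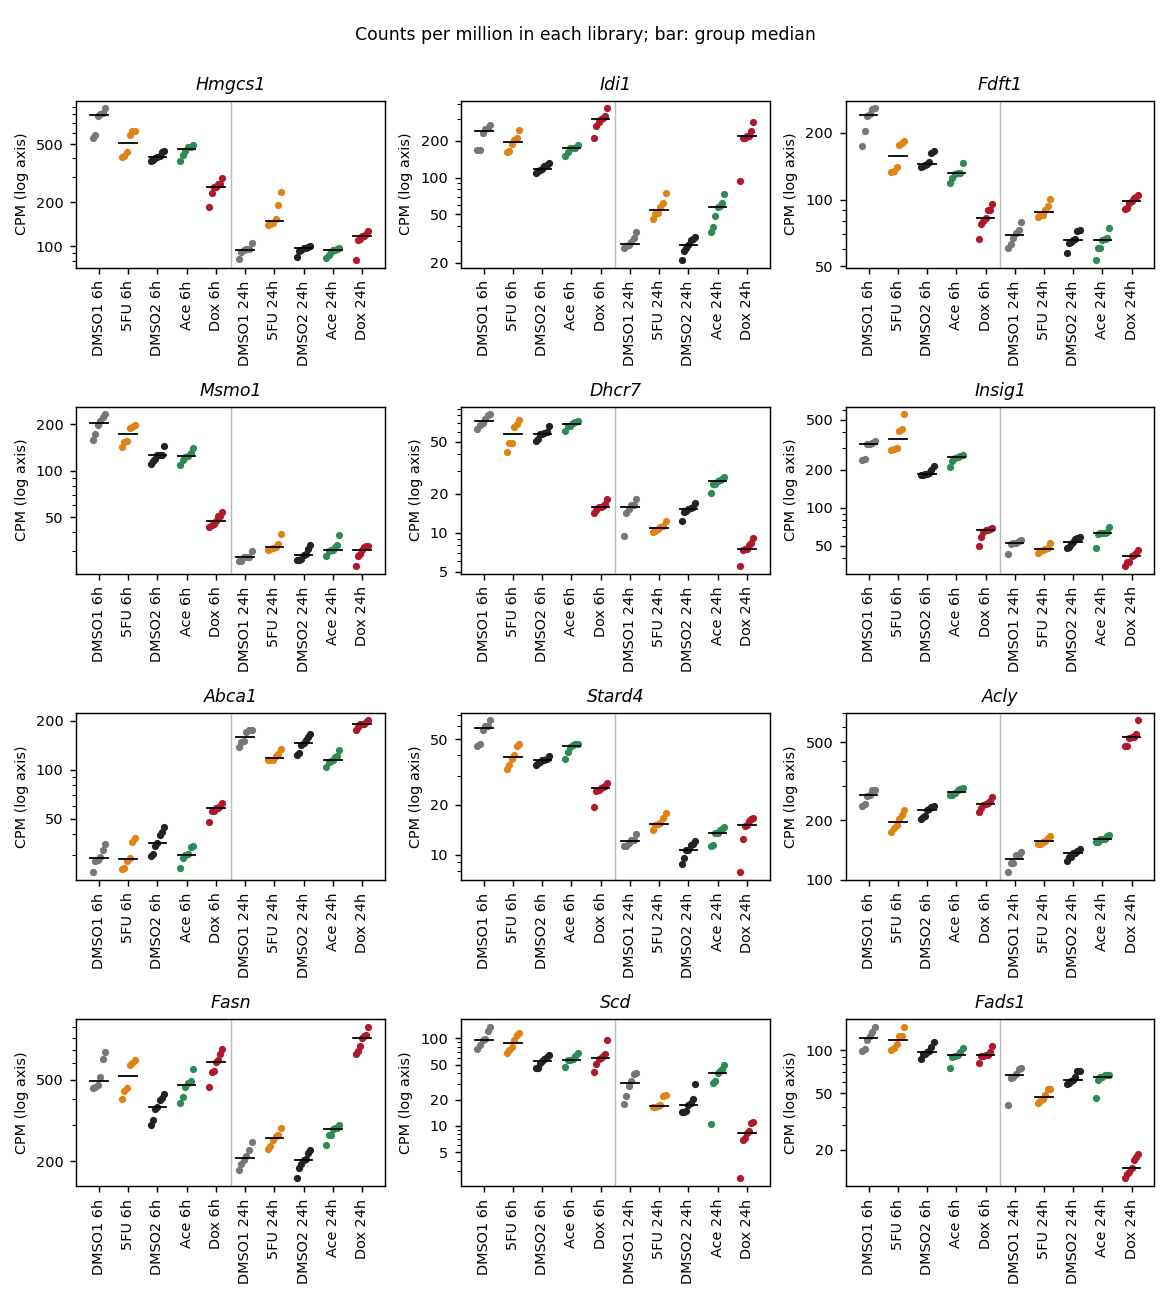
Level in CPM (vertical log axis) of 12 of the genes in every library, by group (6 h on the left and 24 h on the right of the grey line), drawn in order of value within a group and with a bar at the group median. Controls drop between 6 and 24 h in all but Abca1, Acly and Fasn stand far above all other 24 h groups with Dox, and Dhcr7 and Insig1 with Dox at 6 h lie near the 24 h control levels.

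Idi1 was called higher in 5 of the 6 drug comparisons, more than any other of the 36 genes. Its log2FC was -0.19 with 5FU at 6 h, not called, and 0.93 at 24 h, 0.50 and 0.94 with Ace, and 1.30 and 2.91 with Dox. Srebf1 was lower with 5FU (-0.84) and Ace (-0.68) at 24 h and higher with Dox (0.31). Dhcr7 was lower with 5FU (-0.45) and Dox (-0.98) at 24 h and higher with Ace (0.71). The Ace and Dox values share the DMSO2 libraries.

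Within groups, the cholesterol genes also went up and down together from library to library. Over the 65 libraries, the deviations of log2(CPM + 1) from the group means gave a median Pearson's r of 0.51 over the 153 pairs of cholesterol synthesis genes, with a range of -0.12 to 0.90. The pairs of fatty acid genes had a median of 0.26 and the pairs between a cholesterol and a fatty acid gene 0.32. Pairs of the 10817 genes with a mean count of at least 100 had a median of -0.00095. Hmgcs1 (0.68), Fdps (0.67) and Acat2 (0.67) had the highest median r with the other cholesterol synthesis genes, and Tm7sf2 (0.19), Ebp (0.26) and Pmvk (0.28) the lowest. The pairs share their libraries, depth and any difference in the cells of a well, and genes are not replicates. In the controls these 3 also had the log2FCs between 24 and 6 h that were highest of the 18 (0.18, -0.95 and -0.25).

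Of 73 further genes of these pathways, 67 were in the table. Between 24 and 6 h in the controls 25 of them (37.3%) were higher and 27 (40.3%) lower, beside 32.7% and 31.9% of all genes, with a median log2FC of -0.063. Their lists differed in this comparison. Of the 23 other genes of fatty acid and triglyceride synthesis 13 were lower (56.5%) and 4 higher, with a median log2FC of -0.26. Of the 14 other sterol and isoprenoid genes 5 were lower and 3 higher, with log2FCs from -2.18 to 1.08 and a median of -0.050. The 15 genes of sterol uptake, storage and transport (9 higher, 4 lower) and the 15 regulators of SREBPs and LXR (9 higher, 5 lower) had medians of 0.099 and 0.13. In DMSO1 against DMSO2 at 6 h 12 of the 67 were higher (17.9%) and 4 lower (5.97%), beside 9.87% and 6.6% of all genes. With Dox at 24 h 19 were higher (28.4%) and 35 lower (52.2%), beside 40.4% and 41%, and at 6 h 18 (26.9%) and 25 (37.3%), beside 31.5% and 32.7%. With Ace at 6 h 16 were higher (23.9%) and 8 lower (11.9%), beside 16.5% and 15.2%, and at 24 h 16 (23.9%) and 12 (17.9%), beside 18.2% and 19.1%. With 5FU at 6 h 16 were higher (23.9%) and 24 lower (35.8%), beside 23.4% and 24.5%, and at 24 h 22 (32.8%) and 17 (25.4%), beside 28% and 27.8%. Among the 6 drug comparisons, Dox at 24 h held the most genes of the 67 with a change of at least 2-fold that was called (17), against 1 to 5 in each of the others. In the controls 9 such genes changed with time. All genes were not counted at that threshold. Of the drug comparisons, Dox at 24 h also called the largest shares of all genes (40.4% higher and 41% lower). With Dox at 24 h Acacb, the mitochondrial acetyl-CoA carboxylase that restrains fatty acid oxidation, fell from 412, 496 and 521 CPM to 45.6, 53.4 and 90.3 CPM (log2FC -3.02, SE 0.10, FDR 4.18e-38). In the same comparison Dgat2, which makes triglycerides, rose from 11.02, 12.7 and 13.9 CPM to 72.6, 96.3 and 107 CPM (log2FC 2.89, SE 0.089, FDR 4.62e-39). Both groups were apart in these genes. Gpam, at the start of glycerolipid synthesis (-2.13), Acsl1, the main fatty acyl-CoA synthetase of the heart (-2.11), Pdss2, of the ubiquinone side chain (-2.59), and Dhdds, of dolichol synthesis (-2.04), fell as well. Regulators of SREBPs fell too, with Erlin1 at -1.56 and Spring1 at -1.25, while Mlxip, a glucose-sensing transcription factor, rose (1.63), as did Npc2, the partner of Npc1 (1.63), Acsl5 (1.52), Lrp8 (1.21) and Cyp27a1 (1.08). Apoe, Oxsm, Erg28 and Nus1 fell by 1.24, 1.25, 1.10 and 1.03, again with Dox at 24 h. At 6 h with Dox Gramd1b (-1.55), Oxsm (-1.26), Mid1ip1 (-1.11) and Osbpl2 (-1.07) fell. With 5FU Vldlr fell at 6 h (-1.29) and Lrp1 at 24 h (-1.45), both lipoprotein receptors. Ch25h, which makes an oxysterol, was called lower with 5FU at 6 h, at only 1 to 4 counts a library against 4 to 17. Elovl2, an elongase of very long polyunsaturated fatty acids, rose with Ace at 6 h from 0.175, 0.344 and 0.644 CPM to 2.87, 3.10 and 5.73 CPM (log2FC 3.29, SE 0.27, FDR 5.26e-16) and at 24 h from 0.106, 0.220 and 0.524 CPM to 0.594, 0.950 and 1.07 CPM (log2FC 1.81, SE 0.31, FDR 2.00e-06), in both without overlap. It was also higher with 5FU at 6 and 24 h (1.36 and 1.47). Its counts were low, at 4 to 13 a library in DMSO2 at 6 h and 2 to 9 at 24 h.

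Elovl6, which lengthens palmitate, was the 1 gene of the 36 called in no comparison. It had 0 to 110 counts a library, with values of 0 beside values of several CPM in the same group, as in DMSO1 at 6 h (0, 2.72 and 4.91 CPM). Its log2FC of 0.74 with Dox at 24 h had an SE of 0.40 and an FDR of 0.0827. The cause of the spread between libraries was not tested.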

How the data were processed

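Per the study's methods, the authors sequenced poly(A) RNA of wells of rat neonatal cardiomyocytes in serum-free medium, aligned reads to the Ensembl rat transcriptome with kallisto 0.46.0, summed transcripts to genes and removed genes with low counts. They deposited 1 table of estimated counts, which holds whole numbers for 14554 genes in 65 libraries and was used as deposited. Columns were matched to groups by name. Libraries are numbered by their order within a group as names only.

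From these counts, edgeR 4.0.16 (R 4.3.3) was fitted to all genes with the 10 groups as terms and TMM factors (0.859 to 1.07), followed by the quasi-likelihood test and Benjamini-Hochberg adjustment over 14554 genes, with calls at an FDR below 0.01. Genes had to reach 10 counts in some library, and all did. DESeq2 1.42.0, other scalings and filters, the compared groups alone and leaving out each library were the alternatives. No pair of the 180 pairs of libraries within a group was as close as sampling noise (lowest chi-square per gene 2.84). The code was tested on simulated data. Totals of 14332827 to 25738297 counts set the precision of low genes. Members and lists were chosen with earlier results of these data known. All 36 genes may be named, and of the other pathway genes those called with an absolute log2FC of at least 1 in a drug comparison, of which 1 is not reported here. Promoter windows were read from RefSeq (GRCr8), with no entry used for Abcg1, Stard4, Elovl6, Sqle, Acaca, Fasn, Pmvk and Fdft1.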

Additional observations from a re-analysis of the deposited data

Results flagged for a closer look

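In 29 of the 360 combinations of a gene and a group, 1 library stood apart from the rest of its group by Dixon's criterion, where chance gives about 1 in 20. Library 7 of DMSO2 at 6 h was the highest in Acat2 (139 CPM), the highest in Fdps (387 CPM), the highest in Cyp51 (311 CPM) and the highest in Nsdhl (50.7 CPM). Library 7 of Dox at 24 h was the lowest in Hmgcs1 (80.8 CPM), the lowest in Idi1 (93.1 CPM), the highest in Tm7sf2 (83.6 CPM) and the lowest in Srebf1 (52.7 CPM). Library 7 of Ace at 24 h was the lowest in Mvk (19.9 CPM), the lowest in Srebf1 (30.2 CPM), the lowest in Insig1 (48.1 CPM) and the lowest in Fads1 (46.1 CPM). Library 1 of DMSO1 at 24 h was the lowest in Acat2 (25.6 CPM), the lowest in Insig1 (43.4 CPM) and the lowest in Fads1 (41.6 CPM). Library 7 of Dox at 6 h was the lowest in Lss (51.4 CPM), the lowest in Stard4 (19.5 CPM) and the highest in Abcg1 (49.8 CPM). Library 2 of 5FU at 24 h was the highest in Mvd (27.5 CPM) and the highest in Msmo1 (39.1 CPM). The other libraries that stood apart did so in 1 gene each. These were library 4 of DMSO1 at 6 h, the highest in Mvk (56.4 CPM), library 2 of 5FU at 6 h, the highest in Ebp (17.4 CPM), library 6 of 5FU at 24 h, the lowest in Scap (98.9 CPM), library 4 of Dox at 6 h, the highest in Insig2 (18.1 CPM) and library 2 of Ace at 24 h, the highest in Acss2 (120.3 CPM). Then came library 4 of DMSO2 at 6 h, the lowest in Acss2 (104 CPM), library 3 of Ace at 24 h, the lowest in Elovl6 (0 CPM), library 4 of DMSO1 at 24 h, the lowest in Elovl6 (0 CPM) and library 1 of DMSO2 at 24 h, the highest in Scd (30.3 CPM). No cause was tested for any of these libraries.

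In 47 cases, an effect of 5FU, Ace or Dox differed between 24 and 6 h at an FDR below 0.01 in edgeR's test of the difference itself, given here as the log2FC at 24 h minus that at 6 h. For 5FU the difference was positive in Hmgcs1 (1.36), Idi1 (1.11), Fdft1 (0.92), Stard4 (0.88), Acly (0.74), Abcg1 (0.63), Sqle (0.57), Elovl5 (0.56), Acat2 (0.48), Msmo1 (0.47), Sc5d (0.46), Scap (0.39) and Acss2 (0.35). The 5FU difference was negative in Srebf1 (-0.53), Tm7sf2 (-0.47), Insig1 (-0.47), Abca1 (-0.44), Fads2 (-0.41) and Pmvk (-0.33). For Ace the difference was positive in Tm7sf2 (0.67), Acat2 (0.57), Cyp51 (0.48) and Dhcr7 (0.47). For Dox the difference was positive in Acly (1.86), Idi1 (1.62), Msmo1 (1.43), Fdft1 (1.41), Fasn (1.27), Insig1 (1.18), Tm7sf2 (1.11), Stard4 (0.99), Hmgcs1 (0.96), Dhcr7 (0.88), Hsd17b7 (0.86), Nsdhl (0.51), Abcg1 (0.49) and Scap (0.43). The Dox difference was negative in Fads1 (-1.97), Scd (-1.44), Fdps (-1.24), Insig2 (-1.05), Acaca (-0.90), Sc5d (-0.67), Npc1 (-0.61), Fads2 (-0.38), Srebf2 (-0.38) and Acss2 (-0.24). The Ace and Dox differences share the DMSO2 libraries.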

How the results depend on the processing

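Of the 223 calls of single genes over the 12 comparisons, 182 held under every alternative other than the minimum on the fold change, and 41 were lost under at least 1. No called value changed sign under any alternative run. The counts called changed by over 1.5 times under 4 settings. With an absolute log2FC of at least 1 required as well, 4 genes were called for Dox at 6 h, 9 for Dox at 24 h, 21 for 24 h against 6 h in the controls, 2 for the 5FU difference between times, 11 for the Dox difference, and 0 for 5FU at 6 and 24 h, Ace at 6 and 24 h, DMSO1 against DMSO2 at 6 h and the Ace difference. With only the compared groups fitted, 14 genes were called for Ace at 6 h and 7 for the Ace difference. Calls over all genes rose as well. For Ace at 6 h 2631 were higher and 2518 lower of 14003 genes, against 2404 and 2215 of 14554 in the main fit. For the Ace difference 1265 were larger and 1432 smaller of 14200 genes, against 812 and 882 of 14554. Library size alone gave 8 for the Ace difference. Leaving out 1 library at a time gave 3 to 7 for the Ace difference, 7 without DMSO2 library 1 at 24 h. Calls over all genes were not counted in the fits that left out libraries. For the other comparisons, leaving out 1 library gave 11 to 15 genes for 5FU at 6 h, 22 to 24 for 5FU at 24 h, 6 to 10 for Ace at 6 h, 19 to 22 for Ace at 24 h, 20 to 23 for Dox at 6 h, 28 to 29 for Dox at 24 h, 21 to 26 for DMSO1 against DMSO2 at 6 h, 0 to 0 at 24 h, 32 to 34 for the controls over time, 15 to 21 for the 5FU difference and 24 to 24 for the Dox difference. Apart from the minimum on the fold change and the smaller sets of samples fitted, which follow from their construction, the cause was not tested. No paired analysis was possible because the columns of the count table carry no replicate numbers. Elovl6 was the 1 gene of the 36 with under 10 counts in some libraries.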
